A study of Danio rerio with 2 samples.

Results

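The regions described here are 214 stretches of the zebrafish (Danio rerio) genome whose RNA level was at least 4-fold higher in sorted cells labelled an olig2+ subpopulation than in sorted cells labelled panneuronal. Both populations were sorted spinal neurons from embryos at 20 hours post fertilization. The tail piece behind somite 3 was dissociated with trypsin and collagenase, and fluorescent cell bodies were collected. The first population was marked by the Gal4 driver 1020st (the 1020 library) and the second by a HuC driver (the HuC library). No treatment, strain or genotype beyond the driver is given for either, and the fluorescent reporter is not named. Each population gave 1 polyA-selected library, so the spread between embryos or sorts is unknown, and no p-value is given for any difference.

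Gal4 is a yeast activator that switches on genes behind its binding sequence, and a Gal4 line therefore marks the cells in which its driver is active. The olig2 gene encodes a basic helix-loop-helix transcription factor of the ventral spinal cord progenitors that produce motor neurons and later oligodendrocytes. HuC (elavl3) encodes an RNA-binding protein of postmitotic neurons and is widely used to mark neurons in general. By these labels the populations may overlap, since a neuron can carry both markers. The study's title concerns a spinal opsin, a light-sensing receptor, and early neural activity.

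The deposited rows give a transcribed locus on the Zv9 build and its FPKM, a fragment count relative to transcript length and to the mapped total, with no gene name. Loci of both libraries that overlapped by 1 bp or more were merged into a region, and the FPKM of its loci were summed per library. This gave 46045 regions, of which 22655 had a locus in both libraries and reached 1 FPKM in at least 1 of them. The members were selected on these FPKM values alone: among the counted regions, 214 had a log2 ratio of (FPKM + 1), 1020 over HuC, of 2 or more, which is 0.945%. The added 1 FPKM understates the difference of weak regions. Because the FPKM values chose the regions, their levels and ratios are given as a description and support nothing on their own. Genes in the regions were not named, markers of olig2 cells, neurons or other cells were not analysed here, and no sequence of this build was used. Whether a lower level reflects fewer expressing cells or less RNA per cell cannot be told apart in such libraries.

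Depth differed between the libraries. The totals that the FPKM were divided by came to 38195710 fragments (1020) and 21878344 (HuC). A locus of 500 bp was listed from 0.848 FPKM (1020) and from 1.49 FPKM (HuC), which was read as 10 fragments. The libraries held 70216 and 49173 loci. Loci under 300 bp, together with a few of extreme FPKM, were left out, which removed 7993 (1020) and 1855 (HuC).

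Most of the 214 regions were moderately expressed in the olig2+ cells and weak in the panneuronal cells. Their summed FPKM in the 1020 library had a median of 25.1, with a range of 5.27 to 3261, and in the HuC library a median of 3.15, with a range of 0.489 to 797. Over all counted regions the median was 5.02 FPKM in each library. In the 1020 library 185 of the 214 reached 10 FPKM, 51 reached 50 FPKM and 11 reached 200 FPKM. In the HuC library 137 lay under 5 FPKM and 12 under 1 FPKM. The median log2 ratio was 2.38, beside -0.04 over all counted regions. The ratios crowded at the threshold, with 134 under 2.5, 33 at 3 or more and 5 at 4 or more. Together the 214 regions carried 3.05% of the FPKM of all counted regions for the olig2+ cells and 0.485% for the panneuronal cells. A single region supplied 22.3% of their 1020 total.

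**Figure D1:**
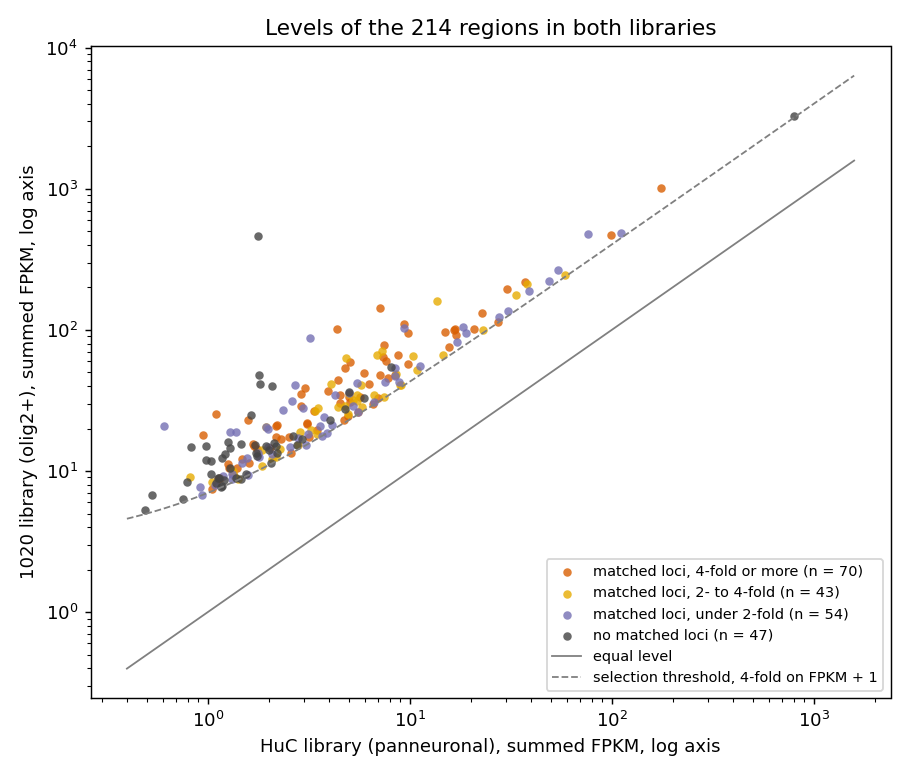
Summed FPKM of the 214 regions in the HuC library (horizontal) and the 1020 library (vertical), both on log axes, 1 point per region and 1 library per population. Colours give the ratio of the pair of loci, 1 per library, whose spans overlap best: 70 regions were at 4-fold or more in that pair too, 43 between 2- and 4-fold, 54 under 2-fold, and 47 had no pair overlapping by 50% of each span.

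The threshold itself separated near-equal values. Just inside it, chromosome 6 from 23727755 to 23748498 had 8.83 FPKM in the olig2+ cells against 1.46 in the panneuronal cells, a log2 ratio of 2.00. The region on chromosome 6 from 20099280 to 20197017 had 6.76 and 0.936 FPKM, and that on chromosome 25 from 30303263 to 30314478 had 17.7 and 3.66 FPKM. Just outside lay chromosome 5 from 74932311 to 74936554 with 15.1 and 3.04 FPKM, chromosome 1 from 9963038 to 9981158 with 8.28 and 1.32 FPKM, and chromosome 1 from 19443108 to 19487547 with 17.9 and 3.72 FPKM. These 6 regions differ from each other in level but hardly in ratio, so membership near the threshold carries no distinction.

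The clearest cases were regions that each library listed as 1 locus with nearly the same ends. There the summed value is the locus itself, and its genomic span is about equal in both libraries. The transcript length that FPKM divides by is not given and may still differ. Of the 214, 57 (26.6%) had 1 locus per library, beside 48.1% of all counted regions, so this kind was less frequent among the members, and 0.523% of all counted regions of this kind reached 4-fold. In 21 of the 57 the 2 loci overlapped by at least 90% of each span. That is 9.81% of the members, beside 20.05% of all counted regions, and 0.462% of all such regions reached 4-fold. These 21 were picked out after their values were seen. Their 1020 levels ranged from 10.5 to 468 FPKM with a median of 41.1, and their HuC levels from 1.39 to 99.2 FPKM with a median of 5.57. Their log2 ratios ran from 2.02 to 4.13, with a median of 2.53. They came from 15 chromosomes and spanned 595 to 143495 bp.

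Highest in level among the 21 stood chromosome 20, from 10151864 to 10160988, with 468 FPKM in the olig2+ cells against 99.2 in the panneuronal cells, a fold of 4.68 on the (FPKM + 1) scale. By level it ranked 99 among the counted regions in the olig2+ cells and 680 in the panneuronal cells. The widest gap belonged to chromosome 2 from 33175187 to 33184128, at 142 FPKM in the olig2+ cells against 7.17 in the panneuronal cells, a fold of 17.5. Its 2 loci were 8916 and 8903 bp long and overlapped by 99.6%. It stood at rank 428 by 1020 level and at rank 9023 by HuC level, so a well expressed locus of the olig2+ cells sat in the middle part of the panneuronal list.

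Other regions of this kind were compact and well expressed. On chromosome 4, from 47062255 to 47062991, both loci spanned 729 bp, and the level was 110 FPKM in the olig2+ cells against 9.35 in the panneuronal cells, a fold of 10.7. On chromosome 6 from 59524953 to 59526485 the levels were 97.2 and 14.9 FPKM. Chromosome 13 from 52987967 to 52992069 had 101 FPKM in the olig2+ cells against 16.7 in the panneuronal cells, and chromosome 21 from 17885152 to 17888585 had 99.2 and 16.6 FPKM. These last 3 regions fell between 5.68- and 6.17-fold, close to one another in level and in ratio. The region on chromosome 23 from 2564345 to 2565626 was the nearest to the threshold, with 114 FPKM in the 1020 library against 27.4 in the HuC library, a fold of 4.06.

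Weaker regions of this kind included longer ones. Chromosome 2 from 1066297 to 1082709 had 23.0 FPKM in the olig2+ cells against 1.59 in the panneuronal cells, a fold of 9.27. Chromosome 17 from 44863973 to 44919109 had 21.2 and 2.21 FPKM, and chromosome 20 from 39537527 to 39542669 had 28.8 and 2.88 FPKM. The longest, on chromosome 18 from 9185807 to 9329301, had 26.3 and 5.57 FPKM. Its loci of 143495 and 143455 bp shared nearly all of their length, and its fold of 4.16 lay just above the threshold. On chromosome 8 from 7895877 to 7914481 the levels were 66.4 FPKM (1020) and 8.73 FPKM (HuC), and on chromosome 9 from 33784753 to 33786841 they were 49.8 and 5.93 FPKM.

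**Figure D2:**
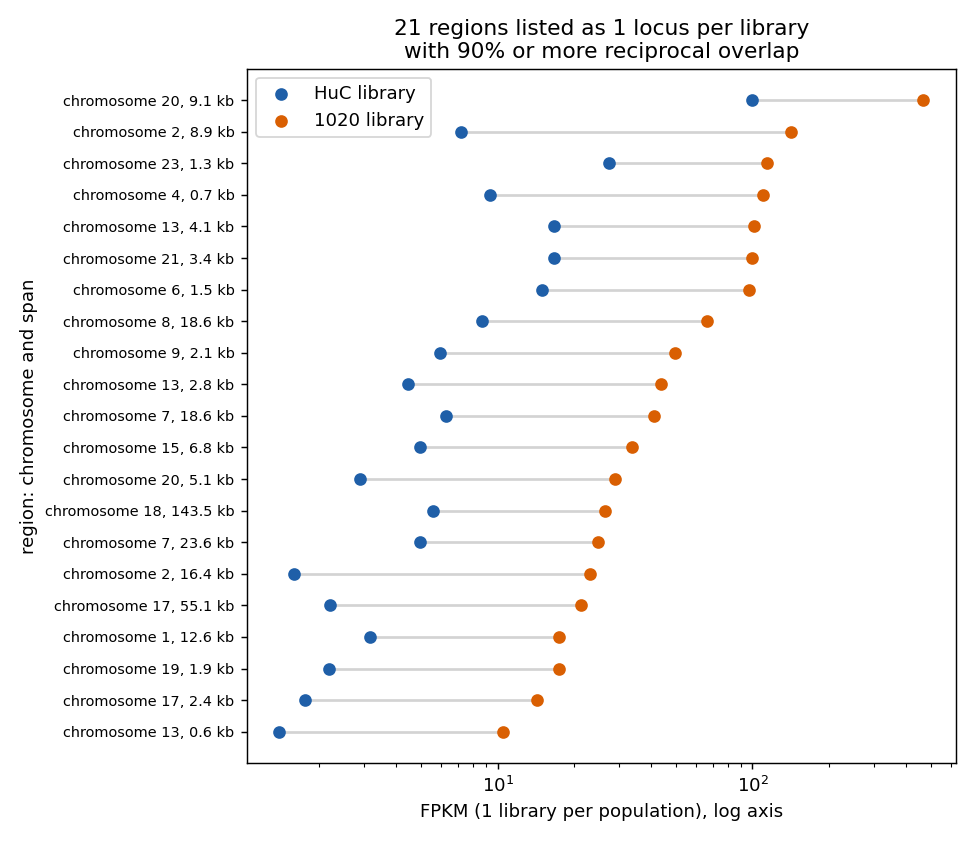
FPKM of the 21 regions that each library listed as 1 locus with at least 90% reciprocal overlap, on a log axis, with 1 value per library and regions labelled by chromosome and span. The 1020 value lies to the right of the HuC value in each region, as the selection requires, and the gap runs from 4.06-fold on chromosome 23 to 17.5-fold on chromosome 2 (8.9 kb) on the (FPKM + 1) scale.

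For 2 regions the fragment numbers could be read back from the FPKM of every locus in both libraries. A value counts as whole fragments within 0.01 of a whole number, for loci of 450 to 1200 bp taken as contiguous. Chromosome 13 from 36594802 to 36595396 corresponded to 161 fragments in the olig2+ cells and 12 in the panneuronal cells, or 4.22 and 0.548 fragments per 1000000, with exact 95% Poisson intervals of 3.59 to 4.92 and 0.283 to 0.958. Chromosome 1 from 35657603 to 35658305, named here because it could be counted, had 125 and 11 fragments, or 3.27 (2.72 to 3.90) and 0.503 (0.251 to 0.8996) per 1000000. The intervals cover counting error only, as PCR copies were not marked by molecular identifiers. The fragments come from the FPKM that chose the regions, so they show the depth behind the values and are no further support for the difference. Of 1460 counted regions readable in this way, 5 (0.342%) were 4-fold or more higher in the 1020 library by fragments per 1000000.

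Depth behind the HuC values could be read for few loci. The 214 regions held 322 HuC loci, and 46 of these (14.3%), all of 450 to 1200 bp, could be read as whole fragments. Of the 46, 28 (60.9%) had under 20 fragments, beside 59.9% of the 7710 HuC loci readable over all counted regions. The fragments behind the longer loci were not read.

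In the remaining regions the libraries listed unlike sets of loci, and the summed ratio depends on how pieces are added. The 1020 library listed more loci than the HuC library in 133 of the 214 regions (62.1%), equal numbers in 70 and fewer in 11. Over all counted regions it listed more in 23.6% and fewer in 18.4%. The mean number of loci per region was 2.98 (1020) and 1.505 (HuC), beside 1.94 and 1.80 over all counted regions. The mirror set, 311 regions with a log2 ratio of -2 or less (1.37% of the counted regions), had the opposite surplus, with more HuC loci in 47.6% and more 1020 loci in 9.32%. A surplus of loci in the higher library was thus seen in both directions, and its part in the ratios was not tested.

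Locus length was also unequal. The most abundant 1020 locus of a region was under 500 bp in 49 of the 214 (22.9%), beside 9.39% of all counted regions. For the HuC library this held for 7 (3.27%), beside 8.55%. Among the 311 regions higher in HuC the pattern was turned round, with 20.9% for the most abundant HuC locus and 4.50% for the 1020 locus. FPKM divides by a length that shrinks quickly at short spans, so a fragment on a short locus weighs more than one on a long locus. The share of the ratios that comes from this was not tested beyond the alternatives given here.

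In all, 3 ways of avoiding the sum were therefore compared. With the most abundant locus of each library in place of the sum, 122 of the 214 (57.0%) were still at 4-fold or more, beside 0.724% of all counted regions under that rule, and 199 were at 2-fold or more. With the pair of loci that overlap best, at least 50% of each span, 167 regions had a pair and 70 of them were at 4-fold, beside 0.999% of all counted regions with a pair. Choosing the most abundant of such pairs gave 79 of 167, beside 0.787%, and all 70 were among these 79. In 18 of the 167 the best-overlapping pair was higher in the HuC library. The pair can miss the dominant isoform, so a low value there need not be a lower level of the region. In the most abundant pair 47 of the 167 were under 2-fold, and 14 of these were higher in the HuC library. The part of isoforms in these values was not tested. These counts use the FPKM that chose the regions and are given to show which members rest on 1 locus and which on several.

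**Figure D3:**
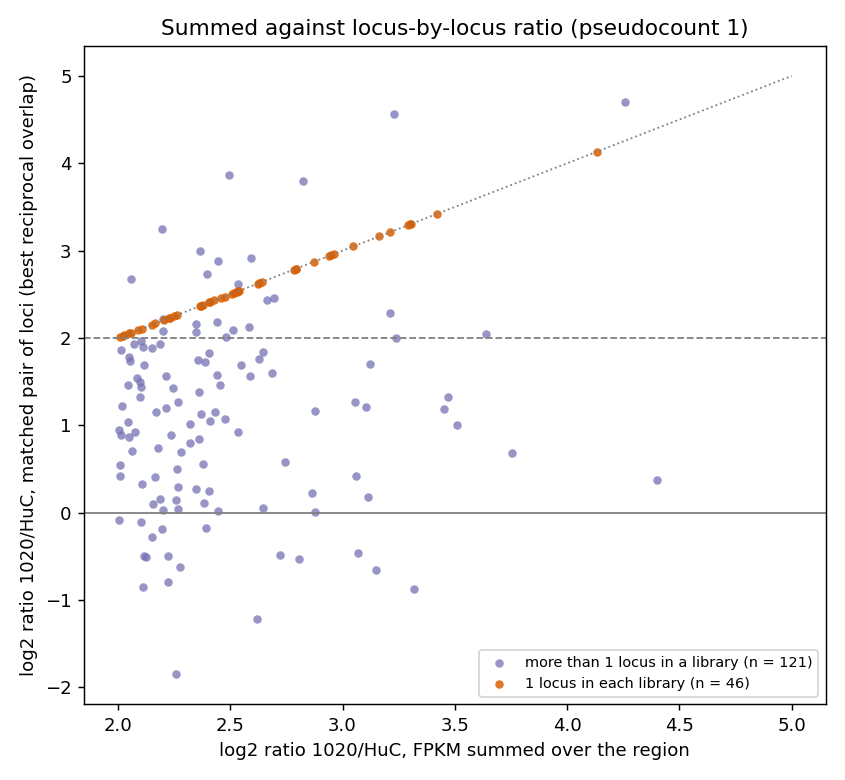
Log2 ratio (1020 over HuC, pseudocount 1) of the best-overlapping pair of loci against that of the summed FPKM, for the 167 regions with a pair overlapping by 50% of each span. Regions with 1 locus in each library (46) lie on the dotted line of equality by construction; of the other 121, many fall below the dashed line at 4-fold, and 18 lie below 0.

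Of the 70 regions at 4-fold in the pair, 46 had 1 locus in each library, where the pair is the sum and 4-fold holds by construction. The other 24 are the members of several loci at 4-fold in the pair, out of 121 with a pair. They had a median span of 12783 bp and a median of 2 loci in each library. The 43 regions at 2- to 4-fold in the pair had a median span of 27321 bp and medians of 3 loci (1020) and 2 loci (HuC). For the 54 regions under 2-fold these were 19639 bp, 3.5 and 1. The 47 without a matched pair were the weakest, with a median of 14.1 FPKM in the olig2+ cells against 1.56 in the panneuronal cells.

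The most abundant of the 214 shows how a short locus sets a level. Chromosome 1 from 60058527 to 60060419 had 3261 FPKM in the olig2+ cells against 797 in the panneuronal cells, ranks 10 and 68. The 1020 value was made of a locus of 401 bp at 3129 FPKM and a second of 862 bp at 132 FPKM, while the HuC library listed 1 locus of 1650 bp across both. With loci under 500 bp left out, the HuC library was higher there, at a log2 ratio of -2.59. A like case was chromosome 15 from 46740034 to 46741069, at 247 and 59.0 FPKM, where a 1020 locus of 387 bp held 207 FPKM. Without loci under 500 bp its log2 ratio was -0.57. In both regions this filter dropped the short 1020 locus and kept a HuC locus over the same stretch. The reversals therefore cannot tell which library was higher, and the direction depends on whether the short locus is counted.

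Several abundant regions had a strong 1020 locus at or near 1 end of a longer HuC locus. On chromosome 7 from 6167919 to 6219115 the sums were 481 FPKM in the olig2+ cells against 76.0 in the panneuronal cells. The 1020 library listed 410 FPKM on a locus of 1935 bp, inside a second locus of 4203 bp at 52.7 FPKM. The HuC library matched the second locus at 50.9 FPKM on 4188 bp and had no locus of like length at the first. It also listed 25.1 FPKM on a locus of 50495 bp that covers the first, and the 1020 library listed 18.4 FPKM on one of 48163 bp that begins beyond it. The loci of 4203 and 4188 bp were thus alike in level, and the locus of 1935 bp held most of the 1020 sum.

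On chromosome 4 from 11096409 to 11104896 the 1020 library listed 380 FPKM on the first 1533 bp and 104 FPKM on a locus of 8293 bp, and the HuC library 112 FPKM on 5721 bp. The pair of long loci had a log2 ratio of -0.10. On chromosome 16 from 33984027 to 34013210 a 1020 locus of 2978 bp held 189 FPKM and one of 27353 bp held 77.9 FPKM, beside HuC loci of 29184 bp at 47.9 and 6.33 FPKM. The matched long loci there had a log2 ratio of 0.69. In both regions the short end locus of the 1020 library carries most of the sum.

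The region with the most loci, chromosome 2 from 58193494 to 58433926, held 13 loci in each library and summed to 223 FPKM in the olig2+ cells against 48.9 in the panneuronal cells. A 1020 locus of 2015 bp at 149 FPKM and one of 3914 bp at 30.2 FPKM made up most of this, next to HuC loci of 4513 and 6404 bp at 2.99 and 7.84 FPKM. The loci of 3914 and 6404 bp form the most abundant matched pair, with a log2 ratio of 1.82. The other loci of the region lay within single digits of FPKM in both libraries, so 1 part of a region of 240433 bp carried the difference.

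In a second kind of abundant region the main loci themselves differed. Chromosome 23 from 35742204 to 35766600 had 1021 FPKM in the olig2+ cells against 176 in the panneuronal cells, ranks 32 and 371. The 1020 library listed 422, 384, 214 and 1.29 FPKM on loci of 2542, 18625, 1360 and 394 bp, and the HuC library 61.9, 66.5 and 47.2 FPKM on loci of 19619, 20715 and 24397 bp. Its long loci of 18625 and 19619 bp overlapped by 94.9% and differed by a log2 ratio of 2.61, close to the 2.53 of the sum.

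Chromosome 7 from 72187171 to 72194742 had 218 and 37.3 FPKM, and its pair of loci had a log2 ratio of 2.09. Chromosome 15 from 28034632 to 28119284 had 212 and 38.3 FPKM, with matched loci of 79417 and 84549 bp at 103 and 34.1 FPKM, a log2 ratio of 1.57. A further 1020 locus of 2764 bp, at the end of that 1020 locus, held 81.3 FPKM of the 212. This region thus also had the short end locus described for the first kind. A small region near the start of chromosome 15, from 18496 to 19010, had 194 FPKM on 400 bp in the 1020 library and 30.3 FPKM on 515 bp in the HuC library. Of these 3 the first and the last were at 4-fold in the matched pair, while the second was between 2- and 4-fold. For the last this holds by construction, since each library listed 1 locus there.

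Of the 12 highest ratios, 6 came from regions of which HuC loci covered less than 50%. At the top stood chromosome 2 from 59655491 to 59658554, where a 1020 locus of 3064 bp at 463 FPKM enclosed a HuC locus of 838 bp at 1.77 FPKM. The latter equals 25 fragments (95% Poisson interval 1.15 to 2.61 FPKM). On chromosome 10 from 46496774 to 46499946 a 1020 locus of 3157 bp held 83.1 FPKM, and the single HuC locus of 794 bp held 3.19 FPKM, or 42 fragments. A second 1020 locus of 721 bp covered the same stretch as the HuC locus at 4.45 FPKM, so the matched pair had a log2 ratio of 0.38 beside 4.40 for the sum.

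The same arrangement occurred on the unplaced sequence Zv9_NA973 from 5951 to 8216, with 41.4 FPKM on 2266 bp in the 1020 library and 1.82 FPKM, or 14 fragments, on 544 bp in the HuC library. On chromosome 7 from 76590157 to 76593658 the values were 40.0 FPKM on 3502 bp and 2.08 FPKM on 548 bp. HuC loci covered 24.0% of the first region and 15.6% of the second. For the 214 as a whole, HuC loci covered under 50% of the region in 39 (18.2%), beside 9.29% of all counted regions, and 1020 loci covered under 50% in 10 (4.67%), beside 5.31%.

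Where the HuC locus was not shorter, high ratios were also found. Chromosome 25 from 7392520 to 7394352 had 102 FPKM in the olig2+ cells against 4.38 in the panneuronal cells. Its matched loci of 735 and 872 bp had 98.2 and 2.83 FPKM, the latter 42 fragments with an interval of 2.04 to 3.82 FPKM, and their log2 ratio of 4.70 exceeded the 4.26 of the sum. The region on chromosome 7 from 32479815 to 32670719 had 63.7 and 4.84 FPKM. There a 1020 locus of 150192 bp held 52.3 FPKM, and the nearly identical long loci of 190876 and 190782 bp had 11.5 and 3.95 FPKM, a log2 ratio of 1.33, while the 1020 locus of 150192 bp against that HuC locus gave 3.43. On the unplaced sequence Zv9_NA921, from 13690 to 67192, the sums were 159 and 13.6 FPKM, and a 1020 locus of 30938 bp within the region held 125 FPKM. The best-overlapping loci there, of 53503 and 51715 bp, had 27.7 and 11.6 FPKM, a log2 ratio of 1.18 beside 3.45 for the sum. The locus of 30938 bp against the same HuC locus gave 3.32.

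Other high ratios were built from many weak pieces. Chromosome 14 from 12794389 to 12894193 had 20.7 FPKM in the olig2+ cells against 0.608 in the panneuronal cells, a fold of 13.5. The 1020 value summed 17 loci of which none exceeded 2.34 FPKM, and the HuC library listed a single locus of 1396 bp. With the most abundant locus of each library the log2 ratio fell to 1.06. On chromosome 10 from 45299289 to 45310255, 6 loci between 5.12 and 11.7 FPKM summed to 41.0 FPKM in the 1020 library, beside 1 HuC locus at 2.69 FPKM, and the most abundant loci gave a log2 ratio of 1.79. Over the 214, the most abundant 1020 locus held less than 50% of the summed FPKM in 51 regions (23.8%), beside 12.8% of all counted regions.

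On chromosome 1 from 739609 to 741598 the 1020 library listed 47.1 FPKM on 649 bp within a region where the HuC library had 1.24 and 0.551 FPKM on 1426 and 1990 bp. On chromosome 4 from 54981480 to 54984978 the sums were 25.2 and 1.10 FPKM, and the matched pair of 1618 and 1161 bp had 7.69 and 1.10 FPKM, a log2 ratio of 2.05.

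The median span of the 214 regions was 12999 bp, with an order-statistic 95% interval of 10102 to 18579 bp that treats regions as independent, beside 7598 bp over all counted regions and 8685 bp among the 311 regions higher in HuC. Other ways of counting gave other sets of regions at 4-fold, with other median spans. The median was 3042 bp among the 57 members with 1 locus in each library. Regions at 4-fold had a median of 585 bp with absent loci taken as 0. With no span minimum and no FPKM maximum their median was 33919 bp, and these last 2 sets hold many regions outside the 214. The 3042 bp of the members with 1 locus in each library stands beside 1699 bp for all counted regions of that kind. The 157 members of several loci had a median of 20633 bp, beside 18482 bp. Regions over 100000 bp made up 10.7% of the 214 and 4.99% of the counted regions, and those up to 1000 bp made up 8.41% and 13.4%. Of the 1130 counted regions over 100000 bp, 23 were among the 214 (2.04%) and 10 among those higher in HuC (0.885%). Over 3000 and up to 10000 bp the order was the other way, 0.903% against 1.94%. Of the 57 members with 1 locus in each library, 1 was over 100000 bp and 34 were over 1000 and up to 10000 bp.

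The 3 longest were chromosome 23 from 15314948 to 15766895 (451948 bp), chromosome 11 from 5038100 to 5343940 and chromosome 7 from 50782439 to 51051988. The first had 35.3 FPKM in the olig2+ cells against 5.02 in the panneuronal cells. Its full-length loci, of 451806 and 451648 bp, had 5.91 and 1.34 FPKM, a log2 ratio of 1.56. The 1020 library also listed 22.4 FPKM on a locus of 423793 bp, and against the same HuC locus this gave a log2 ratio of 3.32, above the 2.59 of the sum.

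The second had 20.6 and 1.94 FPKM. Its 1020 value summed 16 loci, scattered pieces of at most 1045 bp beside 1 full-length locus, and the most abundant of them was at 3.06 FPKM. A matched pair of pieces, 610 bp (1020) and 859 bp (HuC) long, had 1.31 and 1.30 FPKM. These came from 21 and 19 fragments, numbers that are not alike in depth or length. Their 95% Poisson intervals, 0.813 to 2.01 and 0.785 to 2.04 FPKM, overlapped almost fully. The last had 47.0 and 8.44 FPKM, with full-length loci at 5.27 and 4.20 FPKM and 2 further 1020 loci of 246643 bp at 24.9 and 10.99 FPKM. A HuC locus of 258759 bp at 4.24 FPKM matched these, and the more abundant of them against it gave a log2 ratio of 2.31, beside 2.35 for the sum and 0.27 for the full-length pair. In the first and the last region the ratio thus depends on which overlapping pair is taken.

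The regions lay on all 25 chromosomes, with 7 on unplaced sequences, and most were far apart. The median gap between neighbouring members on a chromosome was 3.54 Mb. Their share of the counted regions ran from 0.365% on chromosome 3 (4 of 1096, 95% Wilson interval 0.142 to 0.935%) to 1.53% on chromosome 13 (13 of 848, 0.898 to 2.61%). The interval of chromosome 3 lies just under the 0.945% of all chromosomes, and the intervals of the other chromosomes and of the unplaced sequences include it. These are separate 95% intervals, not adjusted for their number, so the narrow miss does not mark chromosome 3 as low. Chromosome 7 held the most members, 16 of 1122. Ends of chromosomes, taken from the outermost listed loci, held no clear surplus: 21 of the 207 placed members (10.1%) lay within 1 Mb of an end, beside 8.46% of the counted regions and 10.4% of those higher in HuC.

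**Figure D4:**
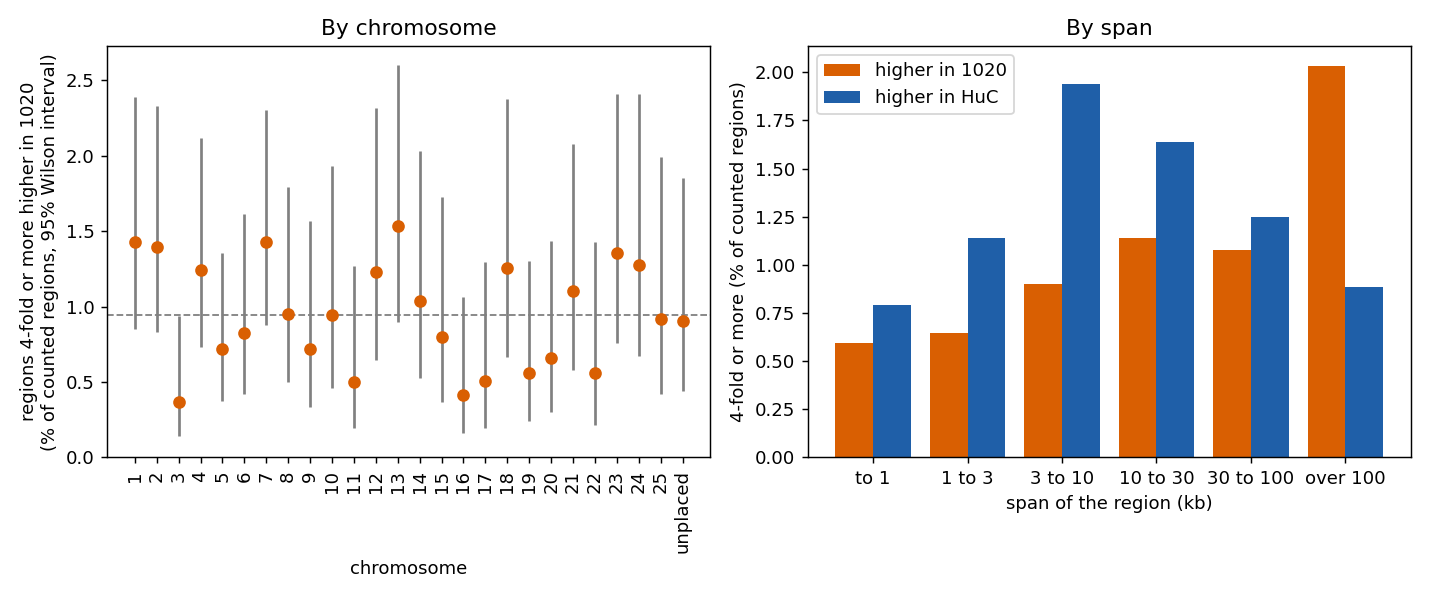
Left, share of counted regions on each chromosome belonging to the 214 members (points, with 95% Wilson intervals that cover counting error and treat regions as independent); the dashed line is the share over all counted regions. Right, shares past 4-fold in either direction by span; above 100 kb the 1020 share (2.04%) is larger than the HuC share (0.885%), and in every other class it is smaller.

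Close groups held few of the members, and no baseline was computed for such groups. Members within 100 kb of each other formed 4 groups holding 10 regions, and 1 of these groups had more than 2 members. That group lay near the end of chromosome 2, where 4 members fell within 153373 bp. From 59505182 to 59505611 the levels were 32.9 FPKM in the olig2+ cells against 6.98 in the panneuronal cells. From 59539174 to 59563141 they were 41.4 and 4.10 FPKM, and from 59618266 to 59620107 they were 45.7 and 7.79 FPKM. The last is the region with the highest ratio of all, at 463 and 1.77 FPKM. The 1020 levels of the first 3 were thus close to one another, and the last was more than 10 times theirs.

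The stretch between the 4 was not raised as a whole. It held 23 regions, of which 16 were listed in both libraries, 6 in the 1020 library alone and 1 in the HuC library alone. The 12 shared regions that were not members had a median log2 ratio of 0.13 and ranged from -0.73 to 0.76. Members and regions of near-equal level therefore alternated along it. Of the 4, those from 59505182 and 59618266 had matched loci at 4-fold by construction, since each library listed 1 locus there. That from 59539174 had a log2 ratio of 1.26 in its pair, and the last had no matched pair.

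**Figure D5:**
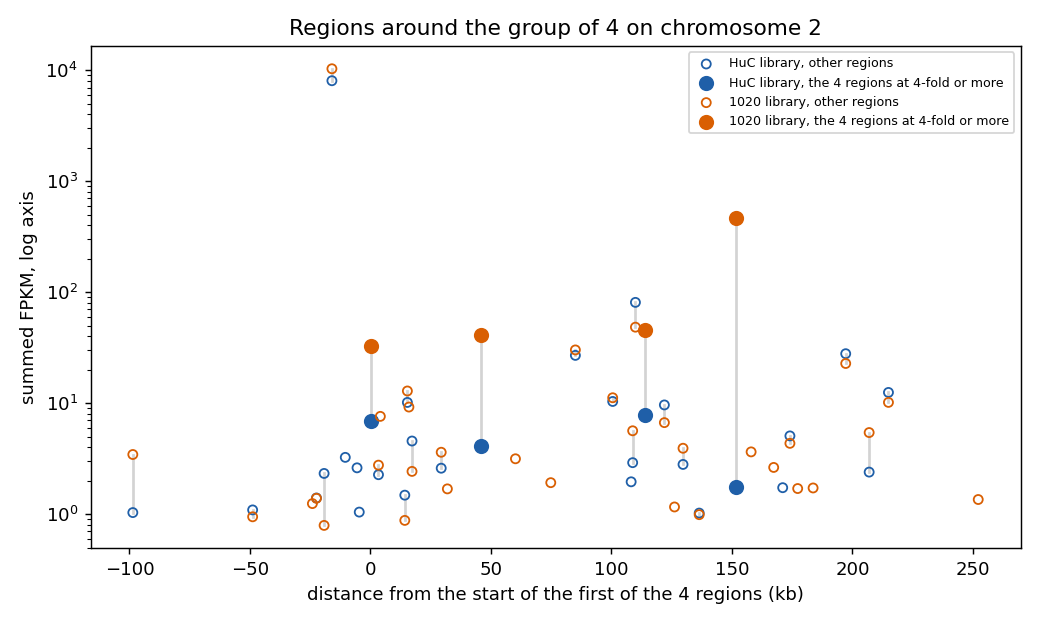
Summed FPKM (log axis) of regions around the 4 neighbouring members on chromosome 2, against distance in kb from the start of the first; filled points are the 4 members, open points other regions, and grey lines join the 2 libraries of a region. The 4 members have 1020 levels of 32.9, 41.4, 45.7 and 463 FPKM, while the shared regions between them differ by no more than 0.76 on the log2 scale in either direction.

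The other groups were pairs. On chromosome 13, regions from 29631607 to 29644970 and from 29645588 to 29648394 were 617 bp apart. The first had 21.8 and 3.09 FPKM and the second 43.9 and 4.44 FPKM, with matched loci at 4-fold in both. In the second this holds by construction, since each library listed 1 locus. On the unplaced sequence Zv9_scaffold3470, regions from 264755 to 267668 and from 267770 to 272027 were separated by 101 bp and had 21.5 and 3.09 FPKM, and 12.6 and 2.17 FPKM. On chromosome 23, from 36175494 to 36176846 and from 36189442 to 36193331, the levels were 28.6 and 5.83 FPKM, and 27.4 and 4.77 FPKM. Matched loci had a log2 ratio of 1.69 in the first, and the second had no matched pair. Whether the regions of a pair are pieces of 1 gene was not analysed here.

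The nearest counted region on each side of a member gave 421 neighbours, of which 6 were members themselves. Over all counted regions, 421 of 44506 neighbours were members. Closer than 5 kb these counts were 4 of 154, beside 154 of 20650. Without the 6, the other 415 had a median log2 ratio of 0.01, beside -0.05 for the neighbours of all counted regions that were not members. Of the 415, 48 (11.6%) were 2-fold or more above HuC, beside 7.98%, and 43 (10.4%) were 2-fold or more below it, beside 10.6%. Among the 150 closer than 5 kb the median was 0.20 and 24 (16.0%) were 2-fold or more above HuC, beside -0.04 and 7.34% for all counted regions at that distance. Near the regions higher in HuC, 572 neighbours were not themselves 4-fold higher in HuC. Of these, 13.1% were 2-fold or more higher in HuC and 7.34% in 1020. The shares over all counted regions above leave out other neighbours, so they are no like baseline. With no neighbour left out, the shares were 17.4% and 6.98% of 602, beside 10.5% and 8.85% for the neighbours of all counted regions.

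Loci of a single library near the members were counted in the same way. A region listed in the 1020 library alone lay within 10 kb of 117 members (54.7%), beside 45.7% of all counted regions and 35.0% of those higher in HuC. A region listed in the HuC library alone lay within 10 kb of 45 members (21.03%), beside 19.9% and 26.045%. The members had longer spans than the counted regions, and the part of span in these shares was not tested.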

How the data were processed

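The authors deposited 1 FPKM value per locus and library. Per the submitters' processing notes, the tools were Cufflinks 2.1.1, TopHat 1.4.0 and Cuffdiff, on Zv9, with no role stated; the annotation and settings were not given in the sources used here. Starts were raised by 1 for printing. Loci of at least 300 bp and at most 200000 FPKM were merged into regions at 1 bp overlap, and FPKM summed, with Python 3.11.15, pandas 2.3.3, numpy 2.4.6 and scipy 1.17.1. Loci matched when their overlap was at least 50% of each span. Fragments were recovered from a line through the lowest recurring FPKM at 450 to 600 bp, taken as 10 fragments; 83.7% and 83.2% of loci of that length in the 1020 and HuC libraries were whole within 0.01. Merging, selection and recovery were tested on simulated short contiguous loci, with at most 1 per library and the same ends in both. The summing of several loci was not covered by that simulation. Members and lists were chosen with earlier results of these data known. Regions were named by highest FPKM (12), highest ratio (12), nearness to the threshold (3 each side), longest span (3), groups of 3 or more within 100 kb, and most loci; others named were chosen after their values were seen. The gene lists set out for an annotated build were not analysed here. With 1 library per population no test was run.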

Additional observations from a re-analysis of the deposited data

Results flagged for a closer look

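Loci left out for a span under 300 bp or an extreme FPKM also lay within the members. At least 1 such 1020 locus fell in 54 of the 214 regions (25.2%) and at least 1 such HuC locus in 16 (7.48%), a signal in data that the comparisons do not use. Over all counted regions the shares were 13.2% and 3.72%. The members are longer and the 1020 library is deeper, and the part of either in this was not tested.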

How the results depend on the processing

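Of 14 alternatives, 9 left the number of regions at 4-fold within 1.5 times of 214. A similar number was not always the same regions. Members were 70 of 189 with the best-overlapping pair, 79 of 149 with the most abundant pair and 122 of 164 with the most abundant locus. Dropping the FPKM minimum could add no region, and a minimum of 5 removed none, as all members reached 5.27 FPKM. The number at 4-fold became 441 (1.95% of the counted regions) when 0.1 was added to FPKM and 68 (0.300%) when 5 was added. It was 1588 of 23421 (6.78%) with no span minimum and no FPKM maximum, and 1694 of 38548 (4.39%) with absent loci taken as 0. Among regions with 1 locus in each library it was 57 of 10894 (0.523%). The main share was 0.945%. The median span was taken over all regions at 4-fold under each alternative, members or not. It was 18592 bp from 500 bp loci and 33919 bp with no span minimum and no FPKM maximum. With absent loci taken as 0 it was 585 bp, and with 1 locus in each library, where all 57 were members, 3042 bp. The share on unplaced sequences, 3.27% of the 214 members, was 7.02% in that last set of 57. Of the 22655 counted regions, 776 lay on unplaced sequences. The share among all counted regions with 1 locus in each library was not computed, so the 7.02% has no like baseline. By construction a pseudocount, or a 0 for an absent locus, moves weak regions most; the other causes were not tested. Setting both libraries to the same sum multiplied the HuC values by 0.905, moved the median log2 ratio by 0.11 and gave 281 regions (1.24%). All 214 members stayed by construction, since lower HuC values raise every ratio. From 500 bp loci, 195 members overlapped a counted region and 145 overlapped at least 1 region at 4-fold. Without short loci a member can split into pieces. For a named member in several pieces, the piece with the largest absolute log2 ratio was taken. Of the 51 named members, 21 were at 4-fold under each alternative that gave a value, and 4 reversed. They are not the same set as the 21 regions listed as 1 locus with nearly the same ends. Some of those one-locus regions fell under 4-fold when 5 was added to FPKM. The 21 named members that stayed are no support for the difference. The smaller pseudocount, scaling to the same sum or median, the FPKM minima and absent loci as 0 cannot take a member below 4-fold. With 1 locus in each library, the alternatives that replace the sum equal it by construction. Regions without a matched pair had no value in the pair alternatives. The log2 ratio on chromosome 1 from 60058527 was -2.59 and on chromosome 15 from 46740034 was -0.57 with loci of 500 bp or more. In the best-overlapping pair it was -0.10 on chromosome 4 from 11096409 and -0.086 on chromosome 6 from 20099280. In the most abundant matched pair, an alternative chosen after seeing the data, these last 2 were again -0.10 and -0.086, and chromosome 15 from 46740034 was -0.025. There was no replicate to leave out. No paired analysis was possible because the populations have 1 library each.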
